A study of Mus musculus with 2 samples.

Results

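The Smoc2 Cxcl14 fibro-adipogenic progenitors (FAPs) were 1379 cell barcodes, out of 48848 barcodes in 2 droplet-based scRNA-Seq libraries of injured mouse hind limb muscle. They were chosen by a rule on their own counts of unique molecular identifiers (UMIs). A member had over 200 detected genes, and its mitochondrial UMIs stayed under 10%. It had at least 1 UMI of *Pdgfra*, UMIs of at least 2 of the matrix genes *Dcn*, *Col1a1*, *Col3a1* and *Lum*, and UMIs of at least 3 of the 7 marker genes *Cxcl14*, *Gdf10*, *Smoc2*, *Penk*, *Inmt*, *Sfrp1* and *Podn*. It had no UMI of *Pi16* or *Dpp4*, which mark adventitial fibroblasts, and none of *Csf1r* or *Pecam1*, which mark phagocytes and endothelium. The IgG library held 1009 members and the SPP1-nAb library 370.

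Both libraries came from male C57BL/6J mice, 10 to 16 weeks old, whose peroneal nerves were crushed on both sides, and both were harvested 7 days post injury (7 dpi). The tibialis anterior (TA) received 10 μL intramuscular injections with 2 μg of either SPP1 neutralizing antibody (SPP1-nAb) or goat anti-mouse IgG, at injury and every 2 days thereafter. SPP1, or osteopontin, is a secreted phosphoprotein that binds integrins and CD44. The labels give the strain as C57BL/6J and name the libraries S100GFP-positive, while the sort is described as holding both GFP+ and GFP- live cells of TA and gastrocnemius (GTN), and the study used mice with GFP under the *S100B* promoter. Mice were pooled, their number was not stated, and each condition had 1 library. There was therefore no spread between replicates, no test was made, and every 95% interval below covers counting error only. Differences between the libraries cannot be told apart from differences between the pools of mice or between the preparations.

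FAPs are the *Pdgfra*-expressing mesenchymal cells that lie between muscle fibers. They secrete and remodel the extracellular matrix, can become adipocytes or myofibroblasts, and after damage release growth factors, complement and cytokines that act on satellite cells, immune cells, vessels and nerve. Denervation alone also activates them, with IL-6 and STAT3 signaling known as part of that response. In resting muscle a parenchymal form near fibers, rich in *Smoc2*, *Cxcl14*, *Gdf10* and *Penk*, is commonly separated from an adventitial form around vessels and fascia that carries *Pi16* and *Dpp4*.

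Members were deeper than the average barcode. Their median was 4978 UMIs in the IgG library and 7585.5 in the SPP1-nAb library, against 3822 and 4756 over all barcodes past the filters. The libraries held 97607674 and 127719916 UMIs in all, of which the members gave 5470375 UMIs in the IgG library and 2822426 in the SPP1-nAb library. Levels below are UMIs summed over cells and scaled to 1000000 UMIs (CPM). A UMI stands for a captured transcript, and levels were not divided by gene length. The libraries shared 163 barcode sequences, and no barcode was a member in both, although 7 IgG and 2 SPP1-nAb member barcodes also occurred in the other library.

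The marker genes carry the choice of cells, so their values in each library are given as a description and no library difference is read from them. *Cxcl14*, a chemokine of stromal cells (ENSMUSG00000021508, chromosome 13, 56436352 to 56444603, GRCm39), was the most abundant marker at 4322 CPM in the IgG library and 4778 CPM in the SPP1-nAb library. *Smoc2*, a matricellular calcium-binding protein (ENSMUSG00000023886, chromosome 17, 14499735 to 14625074), followed at 2369 and 1713 CPM. *Penk*, the proenkephalin precursor, stood at 495 and 383 CPM, and the Wnt inhibitor *Sfrp1* at 376 and 328 CPM. *Gdf10*, a member of the BMP family, had 330.1 and 207 CPM, and *Inmt*, an indolethylamine methyltransferase, had 466 and 199 CPM. *Podn*, a small leucine-rich protein, had 180.1 and 236 CPM. It was the lowest marker in the IgG library, whereas *Inmt* was the lowest in the SPP1-nAb library. A UMI of *Cxcl14* was found in 85.3% of IgG members and 93.5% of SPP1-nAb members (77.3% and 81.1% after thinning of each barcode to 2000 UMIs), and one of *Inmt* in 43.0% of IgG members and 20.3% of SPP1-nAb members (32.5% and 13.4% after thinning). Phagocyte barcodes, which should lack both, had a UMI of *Cxcl14* in 4.52% and 4.91% and of *Inmt* in 0.338% and 0.0946% of 7109 and 10576 cells, at median depths of 4578 and 5741 UMIs.

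Cells lay close to the threshold of 3 marker genes on both sides. In the IgG library, 220 members had exactly 3 of the markers, with 34.1 UMIs of the 7 genes per cell, and 175 fibroblasts just outside had 2, with 19.0 per cell. In the SPP1-nAb library, 91 members had 3 and 30.9 UMIs per cell, and 53 fibroblasts had 2 and 11.7 per cell. Members with all 7 markers were few, 57 and 9. The gene of activated fibroblasts *Postn* was sparse among them, at 16.5 and 40.1 CPM, against 1822 and 2337 CPM among members with 3 markers.

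Members made up a smaller share of the SPP1-nAb library. They were 4.31% of the 23385 IgG barcodes past the filters (95% Clopper-Pearson interval, 4.06 to 4.58) and 1.49% of the 24758 SPP1-nAb barcodes (1.35 to 1.65), a ratio of 0.346. Much of this gap was present at the first step of the rule, since 10.9% and 4.72% of barcodes had a *Pdgfra* UMI. Of the *Pdgfra* barcodes with matrix genes, 66.8% in the IgG library and 74.8% in the SPP1-nAb library had 3 markers. Of those, 72.6% and 58.5% had neither *Pi16* nor *Dpp4*. Because a deeper barcode shows more genes of every kind, the rule was also applied after every barcode had been thinned to 2000 UMIs, which left out 4275 IgG and 3715 SPP1-nAb barcodes. The shares were then 3.70% (3.44 to 3.98) and 1.29% (1.14 to 1.45). Phagocyte barcodes numbered 7109 and 10576, and how far the sort and the number of other cells set the share of the members was not tested.

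The members were not uniform. Leiden clustering, with the rule genes left out and each library centered on its own mean, gave 8 clusters, which are called by number because they were formed from the same counts. The largest held 315 cells and was led by *H19*, *Cthrc1*, *Postn*, *Tnc* and *Ecrg4*, of which *Postn* (periostin) and *Tnc* (tenascin C) are matrix proteins of wound fibroblasts. Cluster 2 (304 cells) was led by *Sult1e1*, an estrogen sulfotransferase, with *Cxcl13*, *Ppp2r2b*, *Aox3* and *Hpgd*, and held the highest *Fgf10* and *Dkk2* levels at 119 and 607 CPM. Cluster 3 (217 cells) was led by the axon guidance receptor *Robo2* with *Eya4*, *Clu*, *Rspo3* and *Hmcn1*. Cluster 4 (175 cells) was led by *Grin2b*, *Col9a2*, *Thrsp*, *Gria1* and *Shisa3*, and reached 459.5 CPM of *Dlk1*, a Notch-like inhibitor of adipogenesis, and 1555 CPM of *Col15a1*.

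Cluster 5 (160 cells) was led by *Gria4*, *Abcc9*, *Gata6* and *Sfrp4*. It carried the highest levels of the markers *Gdf10* and *Inmt*, at 1310.1 and 2039.5 CPM, and of the complement component *C7*, at 2264 CPM. Cluster 6 (127 cells) was led by *Fetub*, *Mpzl2*, *Col28a1*, *Syndig1* and *Inhbb*, and combined 15563 CPM of *Cxcl14* with 5.31 CPM of *Gdf10* and 6.37 CPM of *Inmt*. *Bdnf*, the neurotrophin, was highest there at 99.8 CPM. *Smoc2* was highest in cluster 4 at 8163 CPM and lowest in cluster 5 at 289.8 CPM. These markers of the rule thus ran highest in different clusters. The rule itself let cells enter on different markers, so these levels are given as description. No split of the markers is read from them.

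Not all clusters fitted the label. In IgG and SPP1-nAb cells, 14 parenchymal genes outside the rule summed to 7325 and 8670 CPM in cluster 1 and to 8844 and 7649 CPM in cluster 5. Fibroblasts with a *Pi16* or *Dpp4* UMI had 11102 and 12029 CPM, and clusters 2, 3 and 6 lay above that in both libraries. The last clusters also went against the label. Cluster 7 (50 cells) was led by the phagocyte genes *Cd180*, *Inpp5d*, *St8sia4*, *Ccl24* and *Msr1*, and in its 35 IgG cells the 11 phagocyte markers summed to 7338 CPM, against 144 CPM in the IgG cells of cluster 2. Its cells had a median of 7957.5 UMIs. Cluster 8 (31 cells) was led by *Tenm2*, *Wif1*, *Sbspon*, *Foxd1* and *Cdkn2a*, carried *Cldn1* at 113 CPM and *Apod* at 77259 CPM, and was low in *Cxcl14* at 448 CPM. *Foxd1* and *Cldn1* are genes of nerve sheath fibroblasts. Clusters 7 and 8 are kept in the values below, and values without them are given beside some of the lists and genes. Cluster 4 held 170 IgG and 5 SPP1-nAb members. With 1 library per condition, the treatment, the pools of mice and the preparations cannot be told apart as its source. Cluster 1 held the largest number of SPP1-nAb members (153 of 370), whereas cluster 2 held the largest number of IgG members (241 of 1009), so that a library difference over all members mixes differences within clusters with differences in makeup.

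**Figure D1:**
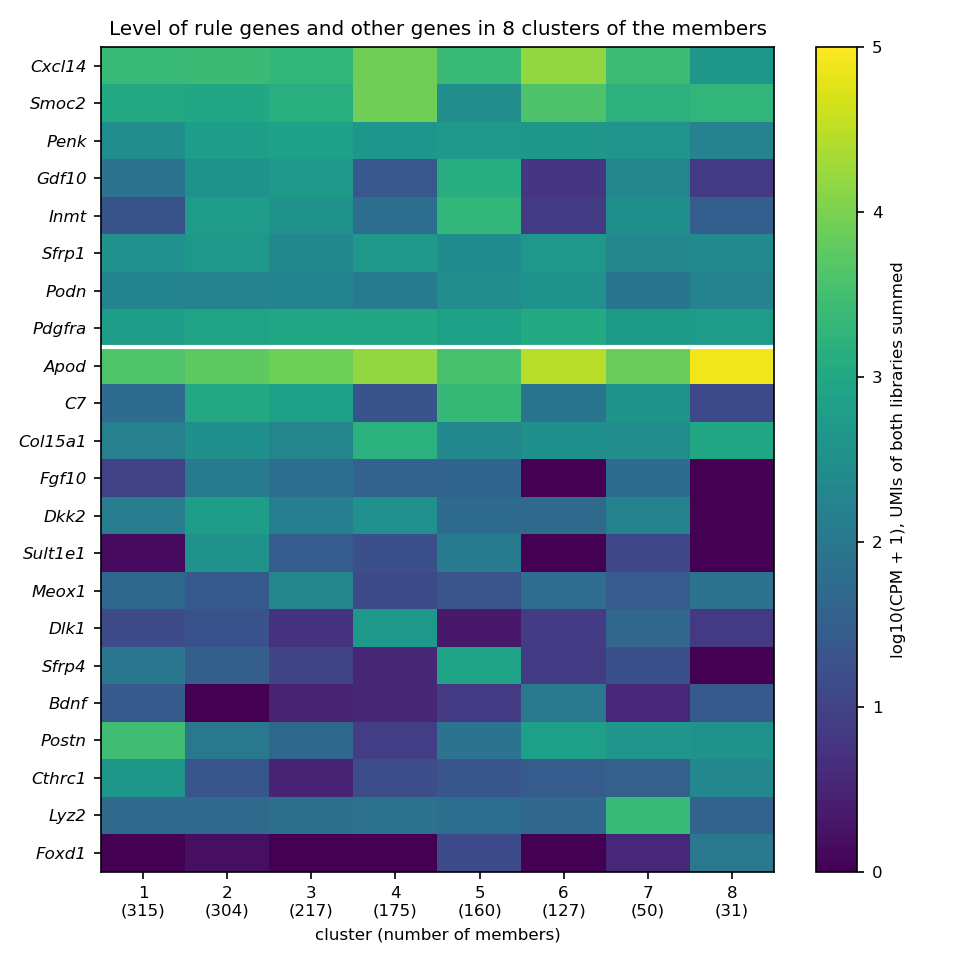
Level of the 8 genes the rule asked for (above the white line) and of 14 other genes (below it) in each of the 8 clusters, as log10(CPM + 1) of the UMIs of both libraries summed, with the number of members under each cluster. *Gdf10* and *Inmt* were highest in cluster 5, *Smoc2* in cluster 4, *Cxcl14* in cluster 6, *Postn* in cluster 1, *Lyz2* in cluster 7 and *Foxd1* in cluster 8.

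The most abundant transcripts included those of matrix genes. Of these, *Dcn* and *Col3a1* are rule genes, so their levels follow in part from the choice of cells and are given as description. After the nuclear RNA *Malat1* (27818 and 25887 CPM) came *Dcn*, the collagen-binding proteoglycan decorin, at 16899 CPM in the IgG library and 10643 CPM in the SPP1-nAb library. *Apod*, a lipocalin that binds lipids, had 10344 and 10628 CPM, and *Mgp*, matrix Gla protein, an inhibitor of calcification, had 5309 and 10663 CPM. The actin-severing protein *Gsn* (gelsolin) stood at 7591 and 3587 CPM. The collagen chains *Col3a1* and *Col1a2* had 6088 and 7862 CPM and 6078 and 7665 CPM, and *Sparc*, a collagen chaperone of the matrix, had 5202 and 6946 CPM. The calcium-binding protein *S100a6* (4813 and 5238 CPM) and the gene model *Gm42418* (7455 and 8339.6 CPM) completed the 10 most abundant. *Gm42418* had 7496 and 8667 CPM in all other barcodes.

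Against all other barcodes of the same library, genes that the rule did not ask for were also higher. *Cyp2f2*, a cytochrome P450, was 29.0 and 58.1 times as high in members as in the rest of the IgG and SPP1-nAb libraries. *Agt*, angiotensinogen, the precursor of angiotensin, was 23.7 and 40.3 times as high, the muscarinic receptor *Chrm2* 28.5 and 23.5 times, *Dlk1* 25.6 and 22.7 times, and *Trhde*, an enzyme that degrades thyrotropin-releasing hormone, 21.2 and 50.7 times. *Sult1e1* (21.0 and 28.6 times), the RGS protein *Rgs17* (21.1 and 20.5 times), *Adamtsl2* (32.2 and 19.6 times), the prolactin receptor *Prlr* (19.0 and 27.7 times) and *Fetub* (16.9 and 33.9 times) were also among the 20 largest ratios. The rest of each library included other fibroblasts. These ratios follow from the choice of the members and are given as description.

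The members were compared with adventitial fibroblasts, the 760 IgG and 353 SPP1-nAb fibroblast barcodes with a *Pi16* or *Dpp4* UMI that met the same conditions on depth, *Pdgfra*, matrix genes, *Csf1r* and *Pecam1*. They were not held to the 7 markers, and 377 and 258 of them had at least 3. These were deeper, with medians of 5563.5 and 8656 UMIs. Of 7924 genes counted in either population, 34 (0.429%) were at least 2-fold higher in members in both libraries and 89 (1.12%) at least 2-fold lower. Rule genes were kept in these counts. The markers *Inmt* and *Gdf10* are among the 34, and *Pi16* and *Dpp4*, absent from members by the rule, can only fall on the lower side. Against the adventitial fibroblasts with at least 3 markers alone, the counts were 22 and 30. Both groups were cut from the same counts, so no test was made and the shares describe only how far apart they lay. *Robo2* had 18.8 and 11.7 CPM in members of the IgG and SPP1-nAb libraries against 4.50 and 0.948 CPM in adventitial fibroblasts. *Cyp2f2* was 3.55 and 5.37 times as high in members and *Dlk1* 8.0 and 3.47 times. The metalloproteinase *Pappa*, which frees IGF from its binding proteins, was 4.23 and 2.85 times as high, *Cyp26b1*, which degrades retinoic acid, 2.85 and 2.79 times, and the chaperone *Clu* (clusterin) 2.49 and 2.56 times. The adhesion molecules *Lsamp* (2.72 and 2.53 times), *Lrrtm3* (5.37 and 3.36 times) and *Astn2* (3.43 and 4.48 times), known from neurons, were higher as well. *Mylk*, the myosin light chain kinase, was 2.47 and 2.44 times as high and *Fmo2*, a monooxygenase, 3.27 and 2.48 times.

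In the other direction, *Cmah*, a sialic acid hydroxylase, had 84.7 and 40.1 CPM in adventitial fibroblasts against 4.02 and 1.06 CPM in members. *Car8* had 90.9 and 47.7 CPM against 4.75 and 0.354 CPM, on 1 UMI in the SPP1-nAb members. The nuclear receptor *Rorb* was 18.3 and 27.8 times as high in adventitial fibroblasts, *Sbsn* 20.4 and 10.5 times and the guidance factor *Sema3e* 12.9 and 10.3 times. *Dmkn*, with 40.9 and 22.1 CPM in adventitial fibroblasts, had 2 UMIs in all IgG members and 0 in all SPP1-nAb members. The marker genes were not private to the members, since *Cxcl14* had 2527 and 3861 CPM and *Smoc2* 906 and 1374 CPM in adventitial fibroblasts. Of the adventitial list, *Fbn1* (fibrillin 1) had 758 and 816 CPM in members and 1705 and 1346 CPM in adventitial fibroblasts, and *Igfbp6*, which binds IGF, 804 and 552 CPM against 1515 and 1049.6 CPM.

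**Figure D2:**
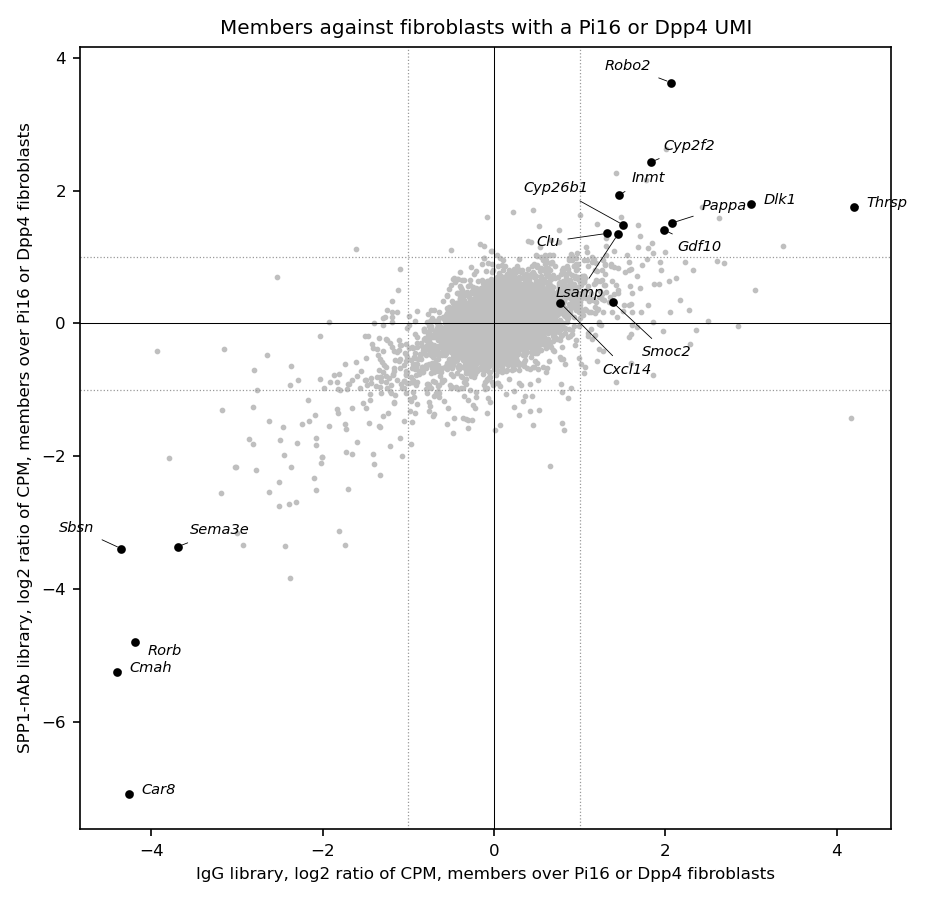
Each point is a gene with at least 100 UMIs over both libraries, in members or in adventitial fibroblasts, and UMIs in both groups of both libraries; the axes give the log2 ratio of CPM of members over adventitial fibroblasts in the IgG library (x) and in the SPP1-nAb library (y), and dotted lines mark 2-fold. Named genes are black: *Dlk1*, *Thrsp* and *Robo2* lie at the upper right, *Cmah*, *Rorb* and *Car8* at the lower left, and *Cxcl14* and *Smoc2* lie nearer to 0. Genes with few UMIs in members are plotted only if they belong to a gene list, so part of the adventitial side is missing. *Pi16* and *Dpp4* are left out, and mitochondrial and ribosomal genes are not.

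Between the libraries, members of the SPP1-nAb library had higher summed levels of activated fibroblast genes and of chemokines and cytokines, and lower levels of *Fgf10* and *Sult1e1*. Adventitial fibroblasts of the same libraries went the same way in each of these, as given below. Values with clusters weighted equally, which also leaves out the cells of clusters 4, 7 and 8, stand beside the lists below. Of 7729 genes with at least 100 UMIs over both libraries, 103 (1.33%) had a log2 ratio (SPP1-nAb over IgG) of 1 or more and 167 (2.16%) of -1 or less. The median over all these genes was -0.03. Without clusters 7 and 8 the counts were 102 and 163. When the 5 clusters with at least 20 members in each library were weighted equally, they were 59 and 85, and without cluster 4 they were 69 and 99.

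**Figure D3:**
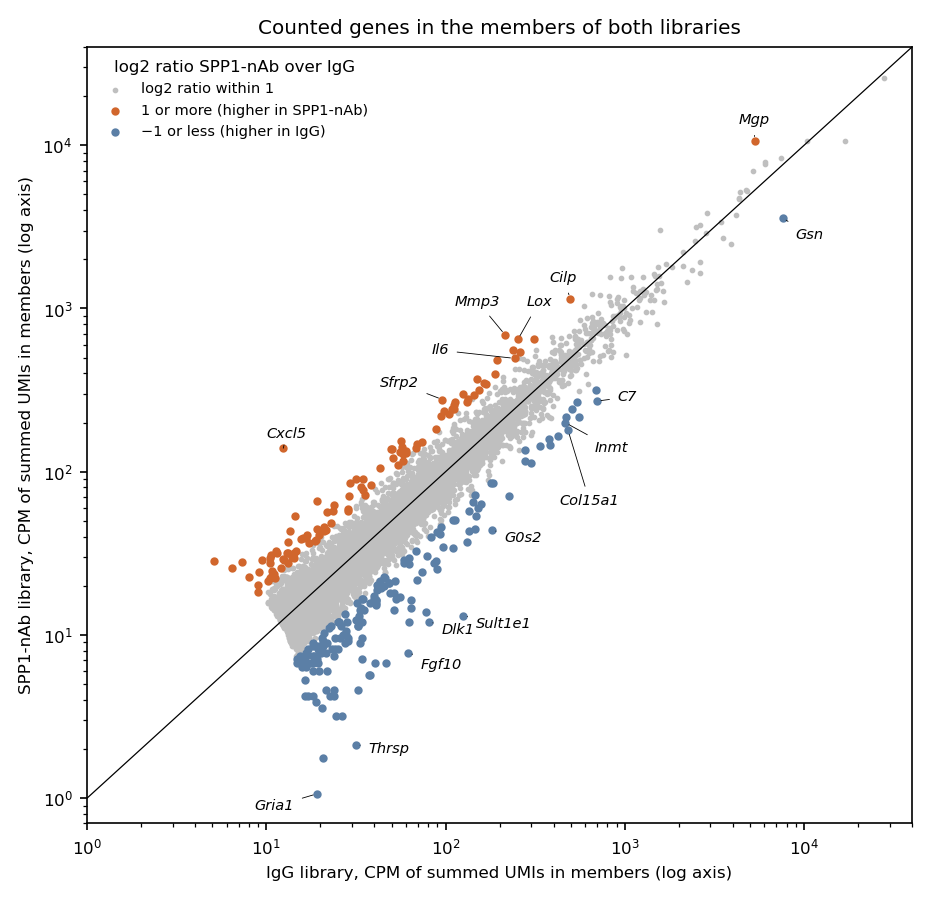
CPM of the counted genes in the members of the IgG library (x, log axis) and the SPP1-nAb library (y, log axis), with 1 point per gene and the line of equality; orange marks a log2 ratio of 1 or more and blue of -1 or less. *Cxcl5* is the point farthest above the line at 12.4 and 139 CPM, and *Gria1*, *Thrsp* and *Fgf10* are among those farthest below it.

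The gene with the largest ratio was *Cxcl5*, a chemokine that attracts neutrophils (ENSMUSG00000029371, chromosome 5, 90907186 to 90909483, GRCm39), at 12.4 CPM (68 UMIs) in the IgG library and 139 CPM (393 UMIs) in the SPP1-nAb library. Its log2 ratio was 3.49 (95% interval, 3.11 to 3.88). Because SPP1-nAb members were deeper, shares of members with a UMI are also given after thinning to 2000 UMIs, which left out 33 IgG and 11 SPP1-nAb members. A *Cxcl5* UMI was found in 1.49% of IgG members and 7.03% of SPP1-nAb members (0.717% and 4.46% after thinning). The 10 highest members held 92.6% of its IgG UMIs and 92.1% of its SPP1-nAb UMIs, so few cells carried it in either library. *Mmp3*, the protease stromelysin 1 (ENSMUSG00000043613, chromosome 9, 7445822 to 7455975), was broader, with a UMI in 17.8% of IgG members and 45.9% of SPP1-nAb members (12.2% and 31.5% after thinning), against 0.324% and 0.425% of phagocyte barcodes. It had 215 CPM (1174 UMIs) in the IgG library and 689 CPM (1946 UMIs) in the SPP1-nAb library, with a log2 ratio of 1.68 (95% interval, 1.58 to 1.79). *Lox*, lysyl oxidase, which cross-links collagen and elastin, had 253 and 646 CPM and a log2 ratio of 1.35, or 0.77 with the clusters weighted equally. A UMI of *Lox* was found in 43.7% of IgG members and 79.2% of SPP1-nAb members (26.1% and 52.4% after thinning), against 0.844% and 1.20% of phagocyte barcodes. The Wnt modulator *Sfrp2* had 96.0 and 277 CPM (1.53), and *Ccn4*, a matricellular target of Wnt signaling, 13.5 and 43.2 CPM (1.68).

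The other large ratios above 1 were *Plscr2* (14.4 and 53.1 CPM, log2 ratio 1.88), *Depdc5*, a part of the GATOR1 complex that restrains mTORC1 (29.4 and 85.7 CPM, 1.54), *Kng2* (10.4 and 29.8 CPM, 1.51), the lipoprotein lipase inhibitor *Angptl4* (31.8 and 90.0 CPM, 1.5), *F830016B08Rik* (13.2 and 37.2 CPM, 1.5) and the integrin chain *Itgb6* (8.04 and 22.7 CPM, 1.5). With the clusters weighted equally *Kng2* had 0.72 and *Angptl4* 0.69. For *Depdc5*, 76.0% of the SPP1-nAb UMIs came from 10 members, and without the 5 highest members of each library its ratio was 0.23. Genes whose level was higher in other barcodes than in members also appeared, namely *Il1rl1*, the IL-33 receptor (5.12 and 28.3 CPM, 2.47), the ErbB ligand *Nrg1* (6.4 and 25.9 CPM, 2.02, or 0.58 at 2000 UMIs per cell) and the chemokine *Ccl24* (7.31 and 28.0 CPM, 1.94). The 10 highest members held 96.4% and 92.5% of the *Il1rl1* UMIs. Of the 40 and 79 *Ccl24* UMIs, 36 and 65 lay in cluster 7, and clusters 1 to 6 held 3 and 14. In all other barcodes *Ccl24* had 210.2 and 596 CPM and *Nrg1* 74.1 and 204 CPM, and their part in the members' values was not tested.

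On the IgG side, the largest ratios belonged to genes of cluster 4. The AMPA receptor subunit *Gria1* had 19.2 CPM (105 UMIs) in the IgG library and 1.06 CPM (3 UMIs) in the SPP1-nAb library and a log2 ratio of -4.17 (95% interval, -6.48 to -2.59). The lipogenic regulator *Thrsp* had 31.6 CPM (173 UMIs) in the IgG library and 2.13 CPM (6 UMIs) in the SPP1-nAb library (log2 ratio -3.89). For the NMDA receptor subunit *Grin2b* the levels were 20.7 CPM (113 UMIs) in the IgG library and 1.77 CPM (5 UMIs) in the SPP1-nAb library (-3.54). Cluster 4 held 82.9%, 83.2% and 83.2% of their IgG UMIs. *Dlk1*, with 80.6 and 12.0 CPM and a log2 ratio of -2.74, had 85.7% there. Its direction turned when 5 clusters were weighted equally, to 0.12. Most IgG UMIs of these 4 genes thus lay in a cluster with 5 SPP1-nAb members. Where a setting gave a value, which not all did, *Gria1*, *Thrsp* and *Grin2b* stayed at or below log2 ratios of -1.17, -1.31 and -2.88.

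*Sult1e1* and *Fgf10* were lower in the SPP1-nAb library with few of their IgG UMIs in cluster 4. *Sult1e1* (ENSMUSG00000029272, chromosome 5, 87723828 to 87739461), which sulfates and so inactivates estrogen, had 125 CPM (686 UMIs) in the IgG library and 13.1 CPM (37 UMIs) in the SPP1-nAb library, with a log2 ratio of -3.26 (95% interval, -3.78 to -2.78). A UMI was found in 10.3% of IgG members and 2.43% of SPP1-nAb members (8.09% and 1.67% after thinning), against 0.0281% of IgG phagocyte barcodes, and none of its IgG UMIs lay in cluster 4. *Fgf10* (ENSMUSG00000021732, chromosome 13, 118806327 to 118928672), a growth factor by which mesenchyme signals to epithelium and fat progenitors, had 61.8 CPM (338 UMIs) in the IgG library and 7.79 CPM (22 UMIs) in the SPP1-nAb library, with a log2 ratio of -2.99 (95% interval, -3.68 to -2.36). *Fgf10* was detected in 20.7% of IgG members and 5.14% of SPP1-nAb members (11% and 3.34% after thinning), against 0.0844% and 0.0189% of phagocyte barcodes, and 9.17% of the IgG UMIs lay in cluster 4. With the 5 clusters weighted equally the log2 ratios were -3.27 for *Sult1e1* and -2.44 for *Fgf10*. The collagen chain *Col4a3* (32.5 and 4.61 CPM, -2.82), the glutathione transferase *Gsta4* (26.5 and 3.19 CPM, -3.06), the retrotransposon-derived *Rtl4* (46.2 and 6.73 CPM, -2.78) and the mitochondrial *Efhd1* (24.5 and 3.19 CPM, -2.94) were the remaining genes of the 10. Cluster 4 held 33.7%, 59.3%, 26.9% and 24.6% of their IgG UMIs, and without it the log2 ratios were -2.69, -2.15, -2.89 and -2.75.

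Gene lists for the functions of FAPs were then summed. Equal clusters below means that the 5 clusters with at least 20 members in each library had equal weight and the cells of clusters 4, 7 and 8 were left out. The growth factors that act on muscle, vessels and nerve were lower in sum, at 2306 CPM in the IgG library and 1688 CPM in the SPP1-nAb library, with a log2 ratio of -0.45 (-0.50 to -0.40). Of 12 counted, 2 were past a log2 ratio of 1 and 2 past -1, beside 1.33% and 2.16% of all genes, with a median of -0.18. With equal clusters the log2 ratio of the sum was -0.28, and *Fgf10* and *Nrg1* stayed past 1 or -1. *Igf1*, which promotes growth of muscle fibers, dominated the sum with 1426 and 953 CPM (-0.58). *Vegfa*, the vascular growth factor, was the second lower gene beside *Fgf10*, at 157 and 63.8 CPM (-1.30, or -1.01 without cluster 4 and -0.90 with equal clusters). *Bdnf* was higher over all members, at 14.6 and 32.6 CPM (1.16), but at 0.14 with equal clusters. It was most abundant in cluster 6, which held 70 IgG and 57 SPP1-nAb members. *Nrg1* has been given above. The vessel ligand *Angpt1* (212 and 186 CPM), the KIT ligand *Kitl* (129 and 158 CPM), *Fgf7* (122 and 108 CPM) and the satellite cell mitogen *Hgf* (51.0 and 45.4 CPM) lay within a log2 ratio of 1.

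Chemokines and cytokines were higher in sum, at 3259.7 CPM in the IgG library and 4881 CPM in the SPP1-nAb library, with a log2 ratio of 0.58 (0.55 to 0.61). Of 13 counted, 6 were past 1 and 0 past -1, beside 1.33% and 2.16% of all genes, and the median was 0.69. With equal clusters the log2 ratio of the sum was 0.51, and *Cxcl5* and *Ccl7* stayed past 1. The monocyte attractants *Ccl7* (236 and 553 CPM, 1.23) and *Ccl8* (54.3 and 109.8 CPM, 1.02), the T cell attractant *Cxcl9* (34.7 and 90.7 CPM, 1.38), the alarmin *Il33* (149 and 372 CPM, 1.32) and *Il6* (243 and 495 CPM, 1.03) joined *Cxcl5*. *Ccl7* and *Ccl8* were higher still in the other barcodes, at 1477 and 1463 CPM and at 787 and 853 CPM. The most abundant member, the neutrophil attractant *Cxcl1*, had 947 and 1528 CPM (0.69), *Cxcl12* 441 and 541 CPM (0.30), and the eotaxin *Ccl11* 729.7 and 510.2 CPM (-0.52).

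Complement genes had 6086 CPM in the IgG library and 7653 CPM in the SPP1-nAb library, with a log2 ratio of 0.33 (0.31 to 0.36). The median of the 9 counted was 0.44, and the sum had 0.21 with equal clusters. Beside 1.33% and 2.16% of all genes, 1 of the 9 was past 1 and 1 past -1. They were factor B, *Cfb* (154 and 315 CPM, 1.03), and *C7*, a part of the membrane attack complex (ENSMUSG00000079105, chromosome 15, 5017233 to 5093252), which went the other way with 699 CPM (3822 UMIs) in the IgG library and 271 CPM (764 UMIs) in the SPP1-nAb library and a log2 ratio of -1.37 (95% interval, -1.48 to -1.26). With equal clusters the ratios were 0.64 for *Cfb* and -0.89 for *C7*. The C1 inhibitor *Serping1* (2882 and 3841 CPM) and *C3* (811 and 1188 CPM) were the most abundant of the list.

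Genes of activated fibroblasts were higher in sum. They summed to 8185 CPM in the IgG library and 12522 CPM in the SPP1-nAb library, with a log2 ratio of 0.61 (0.59 to 0.63), and of 16 counted, 7 were past 1 and 0 past -1, beside 1.33% and 2.16% of all genes, with a median of 0.93. With the clusters weighted equally the log2 ratio of the sum was 0.32, and 0 of these 7 genes stayed past 1. The sum was 16597 and 16759 CPM in cluster 1, where it was highest and the libraries were close, 6509 and 8118 CPM in cluster 2, 3994 and 5652 CPM in cluster 3, 7617 and 13923 CPM in cluster 5 and 7416 and 8225 CPM in cluster 6. Beside *Lox* the 7 genes past 1 were *Cilp* (496 and 1149 CPM, 1.21), *Cthrc1*, a secreted protein of scar-forming fibroblasts (112 and 242 CPM, 1.11), *Thbs2* (thrombospondin 2; 164 and 348 CPM, 1.09), *Timp1* (145 and 293 CPM, 1.02), and the contractile genes *Acta2* (9.51 and 28.7 CPM, 1.59) and *Tagln* (10.6 and 30.8 CPM, 1.54). The contractile pair rested on few cells, since 10 members held 90.1% and 89.7% of the SPP1-nAb UMIs, and the ratio of *Acta2* turned to -0.36 among members with at least 4 markers, where that of *Tagln* was 0.55. *Postn* had 825 and 1549 CPM (0.91) and was found in 21.4% of IgG members and 60.5% of SPP1-nAb members (17.5% and 49.0% after thinning), against 1.80% and 2.74% of phagocyte barcodes. In cluster 1, where *Postn* is a leading gene, it was lower in the SPP1-nAb library, at 3308 and 2707 CPM.

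Collagen chains summed to 23242 CPM in the IgG library and 27960.3 CPM in the SPP1-nAb library, with a log2 ratio of 0.27 (0.25 to 0.28) and a median of 0.25. Of 17 chains, 1 was past 1 and 1 past -1, beside 1.33% and 2.16% of all genes. Within clusters the direction differed, since the sum was 42296 and 36042 CPM in cluster 1, 17452 and 15242 CPM in cluster 6 and 23378 and 39654 CPM in cluster 5, and with the clusters weighted equally the log2 ratio was 0.10. *Col8a1*, a short-chain collagen, was higher (193 and 482 CPM, 1.32, or 0.42 with equal clusters) and *Col15a1*, a basement membrane collagen around muscle fibers and vessels (ENSMUSG00000028339, chromosome 4, 47207582 to 47313179), lower, with 482 CPM (2639 UMIs) in the IgG library and 179 CPM (505 UMIs) in the SPP1-nAb library and a log2 ratio of -1.43 (95% interval, -1.57 to -1.29). That ratio was -0.80 without cluster 4 and -0.74 with equal clusters. The fibrillar chains *Col1a1* (4364 and 5205 CPM), *Col1a2* and *Col3a1* had log2 ratios of 0.25, 0.33 and 0.37, of which *Col1a1* and *Col3a1* are rule genes, and without those the sum had 0.22. The small leucine-rich proteoglycans outside the rule, without *Dcn*, *Lum* and *Podn*, had sums of 5054 and 5871 CPM (log2 ratio 0.22) and a median of -0.37, and 0 of 7 were past 1 or -1. The rule gene *Dcn* made up most of the full list and turned its sum to -0.36. Osteoglycin, *Ogn*, had 2211 and 1456 CPM (-0.60), and *Bgn* (biglycan), which can signal through Toll-like receptors, 1568 and 3025 CPM (0.95). Matrix proteases and inhibitors had 3688 CPM in the IgG library and 4804 CPM in the SPP1-nAb library, with a log2 ratio of 0.38 (0.35 to 0.41). Beside 1.33% of all genes, 2 of 12, *Mmp3* and *Timp1*, were past 1. With equal clusters they were at 0.99 and 0.46, and the sum had 0.25. *Timp2* (864 and 896 CPM), *Mmp2* (560.1 and 845 CPM) and *Mmp14* (440.4 and 662 CPM) were the most abundant.

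Among Wnt signals and modulators outside the rule, that is without *Sfrp1*, 1 of 7 counted genes was past 1 (*Sfrp2*) and 3 past -1. Of all genes, 1.33% and 2.16% were. The Wnt list had a median of -0.83 and sums of 676 and 617 CPM (log2 ratio -0.13). The lower genes were *Wnt5a*, a ligand of noncanonical Wnt signaling (83.2 and 40.0 CPM, -1.05), the Wnt antagonist *Dkk2* (278 and 136 CPM, -1.03) and the R-spondin *Rspo3*, which amplifies Wnt signals (27.6 and 13.5 CPM, -1.04). With equal clusters these ratios were -0.77, -0.77 and -0.78, and the sign of the sum, *Sfrp1* included, turned (from -0.15 to 0.01). Of 16 BMP, activin and TGF-β genes outside the rule, that is without *Gdf10*, 0 were past 1 and 2 past -1. The shares over all genes were 1.33% and 2.16%. The 16 had sums of 3115 and 2819 CPM (log2 ratio -0.14) and a median of opposite sign (0.23). Follistatin, *Fst*, which binds activin and myostatin, had 467 and 215 CPM (-1.12), and *Bmp2* 41.5 and 20.2 CPM (-1.04), or -0.95 and -0.67 with equal clusters. *Fstl1* (1310.0 and 1254 CPM) was the most abundant. Of 12 receptors of growth signals outside the rule, 0 were past 1 or -1, and the log2 ratio of the sum (-0.07) and the median (0.18) differed in sign. *Pdgfra*, which the rule asked for, had 804 and 738 CPM, *Egfr* 755 and 519 CPM (-0.54), *Tgfbr3* 379 and 304 CPM (-0.32) and *Fgfr1* 349 and 417 CPM (0.26).

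Few members had UMIs of the target of the antibody. *Spp1* (ENSMUSG00000029304, chromosome 5, 104582165 to 104589235) had 57.6 CPM (315 UMIs) in the IgG library and 117 CPM (329 UMIs) in the SPP1-nAb library, with a log2 ratio of 1.02 (95% interval, 0.79 to 1.24). A UMI was found in 5.55% of IgG members and 10.8% of SPP1-nAb members (3.38% and 4.74% after thinning), and in 28.0% and 43.9% of phagocyte barcodes. With equal clusters the log2 ratio was 0.77. The 10 highest members held 72.7% of its IgG UMIs and 84.8% of its SPP1-nAb UMIs, and all other barcodes had 561 and 926 CPM. Over the main setting and the alternatives its log2 ratio ranged from 0.64 to 1.28. These included subtraction of a free-RNA part estimated from phagocyte markers. How much of the members' *Spp1* level came from RNA of other cells was not tested. The receptor *Cd44* had 243 and 424 CPM (0.81) and the integrin chains *Itgb1* and *Itgav* 481 and 495 CPM and 151 and 198 CPM (0.04 and 0.39). The integrin chain *Itga8* was lower, at 19.7 CPM (108 UMIs) in the IgG library and 6.02 CPM (17 UMIs) in the SPP1-nAb library (-1.71), with 63.0% of its IgG UMIs in cluster 4 and a log2 ratio of -0.78 without it and -0.88 with equal clusters. Beside 1.33% and 2.16% of all genes, 1 of 8 genes of that list was past 1 and 1 past -1. The log2 ratio of the sum was 0.38. With equal clusters that ratio was 0.19 and 0 genes of the list stayed past 1 or -1. Of 6 genes of the nerve injury response, 2 (*Il6* and *Bdnf*) were past 1, beside 1.33% of all genes. With equal clusters 0 of this list stayed past 1. *Stat3* (438 and 482 CPM) and its feedback inhibitor *Socs3* (462 and 521 CPM) had log2 ratios of 0.14 and 0.17. The GDNF receptor *Gfra1* had 56.7 and 53.1 CPM (-0.09), and the sum of that list had a log2 ratio of 0.35, or 0.35 with equal clusters.

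Of 13 enzymes of retinoid, steroid and detoxification metabolism outside the rule, 1 was past 1 and 2 past -1. The shares over all genes were 1.33% and 2.16%. *Cyp1b1* was higher (88.1 and 184 CPM, 1.06). Both genes past -1 and *Cyp1b1* were within 1 with the clusters weighted equally. The glutathione transferase *Gstm1* (276 and 116 CPM, -1.25) and the aldehyde oxidase *Aox3* (25.4 and 12.0 CPM, -1.08) were lower. The secreted peroxidase *Gpx3*, the most abundant of the list, had 964 and 1779.7 CPM (0.88), and without the rule gene *Inmt* the log2 ratio of the sum (0.34) and the median (-0.08) differed in sign. Among the 9 counted adipogenic genes none was past 1 or -1, the sum had a log2 ratio of -0.22 (-0.14 with equal clusters) and the median was -0.37, with lipoprotein lipase, *Lpl*, at 988 and 729.9 CPM (-0.44) and the transcription factors *Klf4* at 772 and 589.6 CPM (-0.39) and *Cebpb* at 468 and 617 CPM (0.40). Of the 14 parenchymal genes that the rule did not use, 0 were past 1 and 3 past -1. Of all genes, 1.33% and 2.16% were. The median of the 14 was -0.49, and with equal clusters 0 of them stayed past -1. The lipolysis inhibitor *G0s2* was lowest of them (181 and 43.9 CPM, -2.04, or -1.40 without cluster 4 and -0.92 with equal clusters), *Abca8a*, a lipid transporter, had 1505 and 799.7 CPM (-0.91), and *Apod* 0.04. Their sum (16813 and 15285 CPM) turned from -0.14 to 0.08 with the clusters weighted equally. Beside 2.16% of all genes, *Efhd1* alone of 10 adventitial genes was past -1. Their sum (log2 ratio 0.08) turned to -0.15 with equal clusters, and the median was -0.40, with *Fn1* (fibronectin) at 725 and 1215 CPM (0.74).

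The type I interferon response was low and higher in the SPP1-nAb library, at 532 CPM in the IgG library and 832 CPM in the SPP1-nAb library, with a log2 ratio of 0.64 (0.57 to 0.72). With equal clusters the log2 ratio was 0.44. Of 11 counted genes, 1 was past 1, beside 1.33% of all genes, and the median was 0.69. The 1 gene was the antiviral gene *Rsad2* (13.0 and 31.5 CPM, 1.28, or 0.80 with equal clusters). *Bst2* had 130.0 and 229 CPM, *Ifi27l2a* 139 and 178 CPM and *Isg15* 83.2 and 135 CPM. Cell cycle genes summed to 100.2 and 159 CPM, and only 2 of 12 were abundant enough to be counted, *Pcna* (58.5 and 57.0 CPM) and *Stmn1* (10.6 and 22.7 CPM, 1.10, or 0.56 at 2000 UMIs). The sign of this sum turned to -0.10 after thinning to 2000 UMIs. Genes of dissociation and the immediate early response, which mark handling as well as activation, were lower in sum at 15144 CPM in the IgG library and 12300.4 CPM in the SPP1-nAb library, with a log2 ratio of -0.30 (-0.32 to -0.28), or -0.24 with equal clusters, with 0 of 13 past 1 or -1 and *Egr1* (3889 and 2491 CPM) and *Fos* (3534 and 2712 CPM) the most abundant. Of 11 hypoxia and glycolysis genes, *Vegfa* alone was past -1 and none was past 1, beside 2.16% and 1.33% of all genes. The log2 ratio of the sum was 0.18 (0.08 with equal clusters), and hexokinase 2, *Hk2*, had 359 and 449 CPM (0.32).

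**Figure D4:**
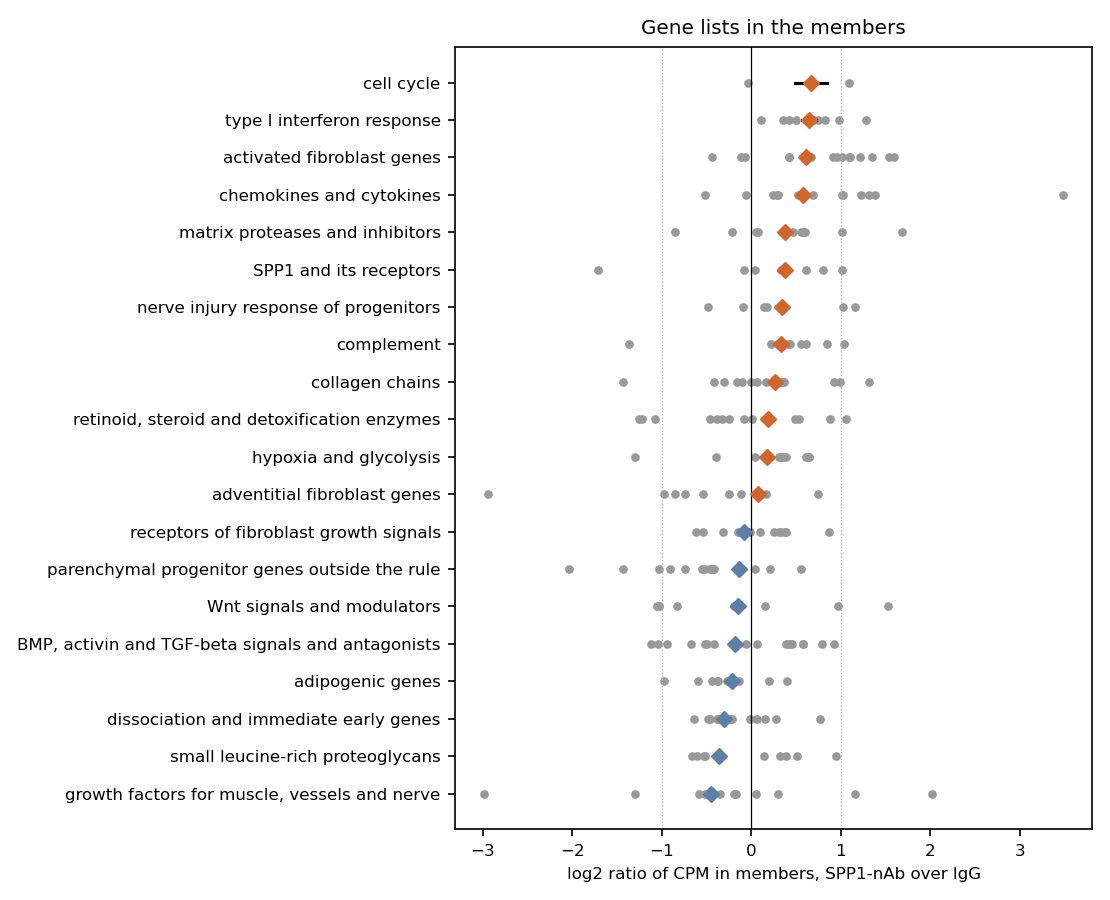
Log2 ratio of CPM (SPP1-nAb over IgG) in members for 20 gene lists: diamonds give the ratio of the summed level with its 95% counting interval as a black bar (mostly shorter than the diamond), orange above 0 and blue below, and gray points give the counted genes of the list; dotted lines mark -1 and 1. Lists hold rule genes where these belong, and the proteoglycan sum lies below 0 with *Dcn* and above 0 without the rule genes. Activated fibroblast genes lie to the right at 0.61, and growth factors are the lowest at -0.45.

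Several of these differences were also present within clusters. In cluster 1, with 162 IgG and 153 SPP1-nAb members, *Cxcl5* had 47.0 and 277 CPM and a log2 ratio of 2.56, *Mmp3* 470.1 and 1064 CPM (1.18), *Lox* 449.8 and 859 CPM (0.93) and *Il33* 182 and 484 CPM (1.42). *Mmp3*, *Lox*, *Il6* and *Ccl7* were higher in the SPP1-nAb library in each of the 5 clusters with at least 20 members per library, and *Cxcl5* in 2 of 5, clusters 1 and 2, with 8.10 and 2.23 CPM in cluster 6. In cluster 2, with 241 and 63 members, *Fgf10* had 149 and 31.8 CPM (-2.22), *Sult1e1* 462 and 46.5 CPM (-3.31) and *C7* 1202 and 573 CPM (-1.07). In cluster 5 *C7* had 2626 and 1375 CPM (-0.93). *Fst*, *Wnt5a*, *Dkk2* and *Col15a1* were lower in all 5. *Postn* had 38.4 and 289 CPM in cluster 2, 15 and 178 CPM in cluster 3 and 15.5 and 242 CPM in cluster 5. It was higher in the SPP1-nAb library in each of these, and its level in cluster 6 is not given.

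**Figure D5:**
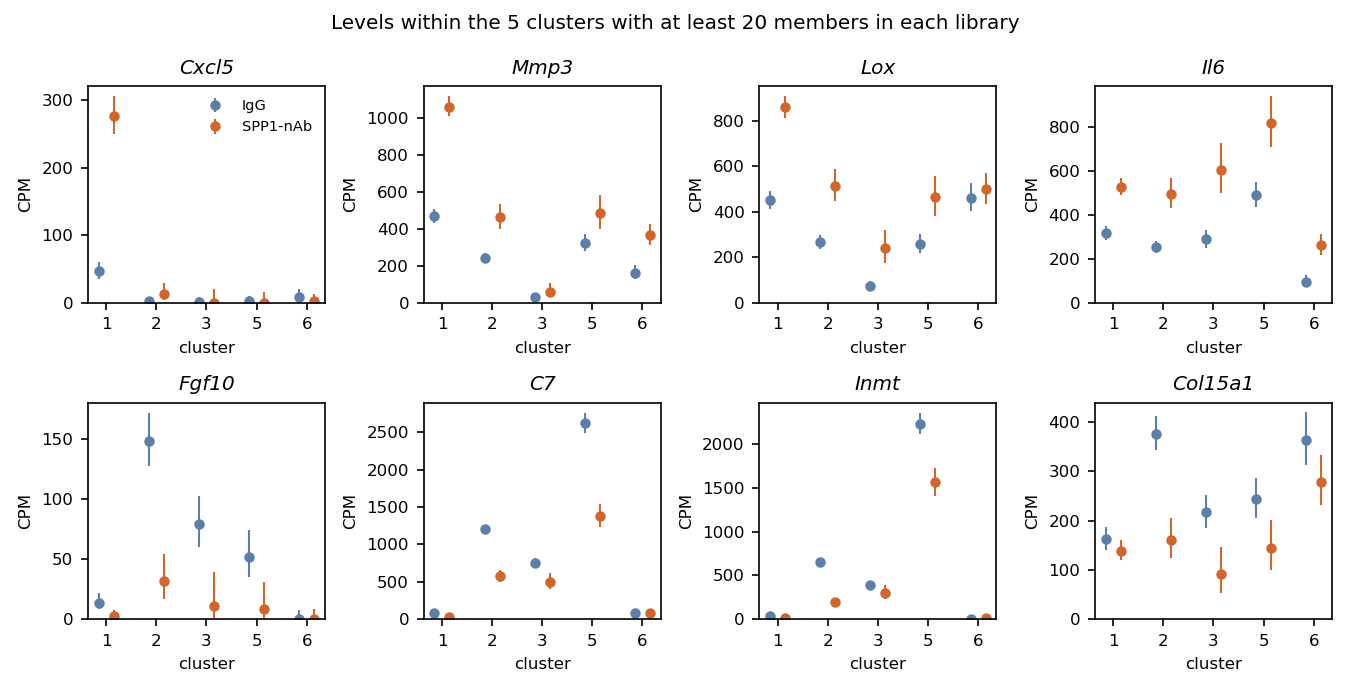
CPM of 8 genes in the members of the IgG library (blue) and the SPP1-nAb library (orange), within the 5 clusters with at least 20 members in each library; bars are exact 95% Poisson intervals. *Cxcl5* stands out in cluster 1 at 47.0 and 277 CPM, and *Fgf10* is lower in the SPP1-nAb library in clusters 1, 2, 3 and 5; *Inmt* is a rule gene and is plotted as description.

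The same library ratios were computed in the adventitial fibroblasts, which come from the same libraries and are therefore no independent check. *Cxcl5* had 4.72 and 77.1 CPM there (log2 ratio 4.03), *Mmp3* 228 and 576 CPM (1.33), *Fgf10* 44.6 and 6.00 CPM (-2.89), *Sult1e1* 71.2 and 10.4 CPM (-2.77) and *C7* 414 and 116 CPM (-1.83). *Il6* had 342 and 436 CPM (0.35), and *Sfrp2*, with a log2 ratio of 1.53 in members, had 219 and 218 CPM (-0.01). *Col15a1* differed in direction, with 152 and 186 CPM (0.30) against -1.43 in members. Activated fibroblast genes summed to 8947 and 13209 CPM in adventitial fibroblasts and chemokines and cytokines to 3451 and 5090 CPM, the same direction as in members. Whether the ratios differ between both populations was not tested.

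Markers of other cells in the members were summed for each library. The 11 phagocyte markers had 484 and 409 CPM, against 19908 and 19237 CPM in phagocyte barcodes, with *Lyz2* the most abundant at 182 and 128 CPM and *Csf1r* at 0 by the rule. Most of these UMIs in IgG members lay in cluster 7. Without clusters 7 and 8 the sums were 144 and 187 CPM, higher in the SPP1-nAb members, and with equal clusters the log2 ratio was 0.66. Beside 1.33% of all genes, *Mrc1* alone of their 9 counted genes was past 1 (35.6 and 71.9 CPM, 1.01). This ratio turned to -0.03 without the 5 members per library with the most *Mrc1* UMIs. The 7 endothelial markers had 7.31 and 6.38 CPM, with *Pecam1* at 0 by the rule and *Flt1* the most abundant. The 5 Schwann cell markers had 81.3 and 50.3 CPM, of which *Cdh19* gave 47.7 and 27.3 CPM and *S100b* 25 and 13.5 CPM, while *Sox10* had 1 and 2 UMIs. With equal clusters the log2 ratios of the endothelial and Schwann cell sums turned, from -0.20 to 0.55 and from -0.69 to 0.28. Cluster 4 held many of the IgG UMIs, and the log2 ratio of the sum turned from -0.69 to 0.28 with equal clusters.

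Tenocyte markers had 367 and 543 CPM, mostly *Thbs4* at 284 and 479 CPM, which lay mainly in cluster 1 at 846 CPM, while *Scx* had 7 and 2 UMIs. Satellite cell and myoblast markers summed to 20.3 and 12.8 CPM, mostly *Des*, mural cell markers to 67.5 and 62.4 CPM, muscle fiber markers to 44.1 and 34.0 CPM, mostly *Tnnt3*, neutrophil markers to 76.4 and 81.5 CPM, mostly *S100a9*, and nerve sheath markers to 94.5 and 90.0 CPM, mostly *Tjp1*. Of the IgG UMIs of neutrophil markers, 346 lay in cluster 7 and 0 in cluster 8, and without both clusters the sum was 14.2 and 9.02 CPM, lower in the SPP1-nAb members. Lymphocyte markers had 13 and 0 UMIs, all in cluster 7, and hemoglobin genes 16.8 and 11.7 CPM. Their part in the library ratios was not tested.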

How the data were processed

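The authors deposited counts of UMIs per gene and barcode for 2 libraries of 10x Genomics droplet-based scRNA-Seq, as written by Cell Ranger before any normalization, removal of ambient RNA or doublet filtering. The submitters' notes name Cell Ranger 8.0.0 and GRCm39, whereas the matrix headers name 9.0.1. The 32287 features were used by Ensembl identifier, and 31674 were found in GENCODE M39, the source of coordinates. *Ccl19* and *Aldoa*, whose symbols occur more than once, were left out of list sums.

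Members were chosen by the rule in Python 3.11.15 (numpy 2.4.6, scipy 1.17.1, scikit-learn 1.9.0, leidenalg 0.10.2), and the members and gene lists were chosen with earlier results of these data known. Levels were CPM of UMIs summed over members. Intervals were exact (Poisson for levels, binomial for ratios, Clopper-Pearson for shares). Genes counted between libraries had at least 100 UMIs over both and UMIs in at least 20 members, without mitochondrial, ribosomal, hemoglobin, immunoglobulin and sex genes. With 1 library per condition, no test or p-value was computed. Named were the rule genes, the most abundant genes and all genes past a log2 ratio of 1 in each list, the 10 largest library ratios per direction among genes above all other barcodes, the 5 largest without that condition, genes from the largest ratios against other populations, and the leading genes of clusters. Further members of the lists, genes of the closing section and the order of levels across clusters were chosen after their values were seen.

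Clusters used 1000 variable genes, 15 principal components, 20 neighbors and the Leiden algorithm at resolution 0.5. No doublets were removed beyond the rule. Alternatives removed the 10% or 20% of barcodes with the highest doublet scores, and changed the filters, the number of markers, the depth, the weighting of cells, free RNA and the count minimum. The steps were tested on simulated data.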

Additional observations from a re-analysis of the deposited data

Results flagged for a closer look

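Of the 270 genes past a log2 ratio of 1 or -1 between the libraries in members, 7 went the other way in adventitial fibroblasts of the same libraries, with counting intervals clear of 0 in both. The share of all counted genes that went opposite ways is not given, so the 7 are listed as description. The difference between the populations was not tested, as each condition had 1 library. Of the genes of stromal cells, *Col15a1* had 482 and 179 CPM in members and 152 and 186 CPM in adventitial fibroblasts, log2 ratios of -1.43 in members and 0.30 in adventitial fibroblasts. In members the ratio was -0.80 without cluster 4 and -0.74 with the clusters weighted equally, no longer past -1. *Has1*, a hyaluronan synthase, had 133 and 278 CPM and 541 and 497 CPM, log2 ratios of 1.07 in members and -0.12 in adventitial fibroblasts (0.68 in members with equal clusters), and the protease *Prss23* 93.8 and 218 CPM and 222 and 189.9 CPM, log2 ratios of 1.22 in members and -0.23 in adventitial fibroblasts.

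The other 4 are genes of phagocytes and their levels were low. Log2 ratios were -1.14 in members and 1.15 in adventitial fibroblasts for *Clec4a2*, -1.09 in members and 1.33 in adventitial fibroblasts for *Ly86*, -1.52 in members and 0.67 in adventitial fibroblasts for *Pla2g7* and -1.17 in members and 1.62 in adventitial fibroblasts for *Ms4a7*. With equal clusters *Pla2g7* and *Ms4a7* turned in members, to 0.21 and 0.62. The summed phagocyte markers had 484 and 409 CPM in members of the IgG and SPP1-nAb libraries and 398 and 759.8 CPM in adventitial fibroblasts. Without clusters 7 and 8 the members had 144 and 187 CPM, the other direction. The part of cluster 7 in these ratios was not tested.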

How the results depend on the processing

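The share of members in the SPP1-nAb library over that in the IgG library, 0.346, ranged from 0.31 to 0.411 over 12 alternatives and was 0.411 without cluster 4. The count of 103 genes at a log2 ratio of 1 or more became 59 with the clusters weighted equally, an alternative chosen, like those without clusters, after seeing the data. The 167 genes at -1 or less became 70 at 2000 UMIs per barcode (fewer genes are counted), 312 without the 5 highest members of each gene (a larger share of the smaller library), 307 with at least 50 UMIs, 95 with at least 200 UMIs, 99 without cluster 4 and 85 with the clusters weighted equally. Against adventitial fibroblasts, the 34 genes at least 2-fold higher became 55 with the mean of each cell's CPM, 52 after a free-RNA part estimated from phagocyte markers was subtracted (which counts those of cluster 7 as free RNA), 22 against adventitial fibroblasts with at least 3 markers and 58 with at least 50 UMIs, and the 89 at least 2-fold lower became 44 at 2000 UMIs and 30 against those with at least 3 markers. Other causes were not tested. Of the 20 list sums, 15 kept their direction in every alternative run. The proteoglycan list turned to 0.216 without the rule genes. The parenchymal list turned to 0.0685 with at least 4 markers, 0.00992 without cluster 4 and 0.083 with equal clusters, which also turned the adventitial list to -0.15 and the Wnt list to 0.0124. The cell cycle list turned to -0.10 at 2000 UMIs. Of 56 genes, 53 kept their direction wherever an alternative gave a value, which *Gria1*, *Grin2b*, *Thrsp*, *Ccl24* and *Mrc1* did not have in all. *Acta2* turned to -0.36 with at least 4 markers and -0.0897 without its 5 highest members, *Mrc1* to -0.033 without them, and *Dlk1* to 0.12 with equal clusters. Resolutions of 0.3 and 1 gave 8 and 12 clusters. No paired analysis was possible because each condition had 1 library.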

Other observations

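The reporter was measured in the members as the feature *Gfp*. In the IgG and then the SPP1-nAb library it had 57.2 and 51.0 CPM, and 16.1% and 19.2% of members had a UMI, or 7.68% and 7.24% at 2000 UMIs per cell. In phagocyte barcodes the shares were 47.9% and 61.5%, or 28.1% and 36.0% at 2000 UMIs. A second reporter feature of the files had no UMI in any member of either library.

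Endogenous *S100b* had a UMI in 11.7% and 8.11% of members, or 5.33% and 1.95% at 2000 UMIs, and was highest in cluster 4 at 58.5 CPM. In phagocyte barcodes 0.295% and 0.199% had a UMI.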
